A study of Mus musculus with 2 samples.

Results

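The cytosolic ribosomal protein genes encode the protein subunits of the cytoplasmic ribosome, and they were followed here across the cell types of the brain and between both Fit2 genotypes. They were chosen by symbol, as all genes named Rpl or Rps with a number (with close paralogs such as Rpl22l1) together with Rpsa, Rplp0, Rplp1 and Rplp2. This gave 84 of the 32285 genes measured. The choice used no measured value, and 83 of the 84 genes had at least 1 UMI (unique molecular identifier, the count of a captured transcript) in cells of each library.

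The study profiled cells dissociated from the brain of APP-KI mice, which model Alzheimer's disease by a knock-in of APP, at 6 months of age. Droplet-based single-cell RNA sequencing with 3′-end capture was used. There were 2 libraries, 1 from APP-KI Fit2-Mut mice, in which Fit2 is disrupted in macrophages, and 1 from APP-KI Fit2-WT mice with intact Fit2; both carry the APP knock-in. The labels give neither the promoter that restricts the disruption, nor the deleted part of the gene, nor the number of animals in each library. With 1 library per genotype there were no replicates and no test is possible; every interval below is a 95% interval that covers counting error only.

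Each ribosome joins a small subunit, built from Rps proteins, to a large subunit, built from Rpl proteins, and the proteins are made in matched amounts. The mRNAs carry a run of pyrimidines at their 5′ end, the terminal oligopyrimidine tract, through which mTORC1 and Larp1 control their translation and stability. In single-cell data the share of ribosomal protein transcripts is known to be high in lymphocytes and low in nuclei, which hold little mature cytoplasmic mRNA.

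Stretches around the transcription start are shown for members on which the results below turn, from 15 bases before the RefSeq start to 15 bases from it on, 5′ to 3′ on the coding strand (GRCm38.p6). Capitals mark the longest run of C and T in the stretch (the first one where runs tie). Rps28, Rps21, Rpl35, Rpl38 and Rpl41 are short members that were lower in Fit2-Mut in each of the main types, and Rps27 with Rps27l and Rpl22 with Rpl22l1 are paralog pairs whose balance differed between types.
Rps28, chr17:33824548-33824577, minus strand: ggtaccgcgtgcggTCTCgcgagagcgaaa
Rps21, chr2:180257364-180257393, plus strand: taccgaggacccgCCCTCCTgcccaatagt
Rpl35, chr2:39005117-39005146, minus strand: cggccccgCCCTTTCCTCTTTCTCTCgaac
Rpl38, chr11:114668565-114668594, plus strand: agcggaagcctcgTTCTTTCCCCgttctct
Rpl41, chr10:128549154-128549183, minus strand: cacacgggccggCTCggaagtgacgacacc
Rps27, chr3:90213634-90213663, minus strand: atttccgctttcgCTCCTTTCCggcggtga
Rps27l, chr9:66946071-66946100, plus strand: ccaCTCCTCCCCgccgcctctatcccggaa
Rpl22, chr4:152325711-152325740, plus strand: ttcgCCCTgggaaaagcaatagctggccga
Rpl22l1, chr3:28805493-28805522, plus strand: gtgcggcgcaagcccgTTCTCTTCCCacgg
The longest run was 18 bases in Rpl35, 10 in Rpl38 and Rpl22l1, 9 in Rps27 and Rps27l, 7 in Rps21, 4 in Rps28 and Rpl22, and 3 in Rpl41, so the short members with low ratios did not share a long run. Runs were taken over the whole stretch: those of Rps27l, Rpl22 and Rpl41 lay wholly before the annotated start, while that of Rps27 spanned it. Of the 64 members with a RefSeq promoter entry, 25 (39.1%) had a run of at least 8 such bases in their first listed stretch, against 11.7% of 20201 other genes of the files. The letters CTTTC, read on the coding strand only, stood in 16 of those 64 stretches (25%) and in 3.72% of the other genes' stretches. These are matches of letters to annotated starts and show no tract in an mRNA.

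Barcodes counted as cells had at least 1000 UMIs, at least 500 genes and at most 10% mitochondrial UMIs, which left 5979 barcodes in Fit2-Mut and 5333 in Fit2-WT. The libraries held 63234140 UMIs in Fit2-Mut and 52491901 UMIs in Fit2-WT, and 10 passing barcodes were shared by both. After removal of doublets the cells fell into 27 clusters, found with the ribosomal protein genes left out, so that their levels did not form the clusters. Fitm2, the gene symbol of Fit2, had 1 UMI in Fit2-Mut and 17 UMIs in Fit2-WT microglia-like cells. Cell types are called "like" because their names rest on marker genes alone.

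Over all passing barcodes, ribosomal protein genes made up 8.51% of UMIs in Fit2-Mut and 9.03% in Fit2-WT, a ratio of 0.943 (exact conditional interval 0.941 to 0.944). In the median barcode the share was 5.97% in Fit2-Mut and 6.63% in Fit2-WT. With the same mix of 11 cell types in both libraries the shares were 8.66% in Fit2-Mut and 9.16% in Fit2-WT, a ratio of 0.945. Barcodes with 10 to 100 UMIs, which hold mostly free RNA, had the opposite order, with 4.14% in Fit2-Mut and 3.90% in Fit2-WT (ratio 1.06, 1.05 to 1.07).

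The share differed far more between cell types than between genotypes. T cell-like cells had the highest share of the 11 types with at least 50 cells in each library, 24.4% in Fit2-Mut and 29.9% in Fit2-WT, and astrocyte-like cells the lowest, 1.49% and 1.53%. The macrophage types came next. Border-associated macrophage-like cells, named for the macrophages of the brain's coverings, had 18.7% in Fit2-Mut and 19.3% in Fit2-WT, and microglia-like cells had 17.0% and 18.2%. The border-associated cluster also met the marker limits for monocytes, so its values are those of a mixed group. With members allowed among the clustering genes and counted in the scaling totals, 0 of them were picked as variable genes. In that setting a border-associated macrophage-like cluster (67 Fit2-Mut and 53 Fit2-WT cells) and a monocyte-like cluster (41 and 67 cells) came apart. Neuroblast-like (11.02% and 12.1%), endothelial-like (10.5% and 11.6%), fibroblast-like (10.1% and 9.78%) and choroid plexus-like cells (8.60% and 8.74%) lay in the middle. Ependymal-like cells had 5.86% in Fit2-Mut and 6.50% in Fit2-WT, neutrophil-like cells 5.67% and 4.44%, and oligodendrocyte-like cells 4.19% and 4.38%. The order of the 11 types was the same in both libraries. The intervals of neutrophil-like and oligodendrocyte-like cells overlapped in Fit2-WT, so that pair was not told apart there.

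**Figure D1:**
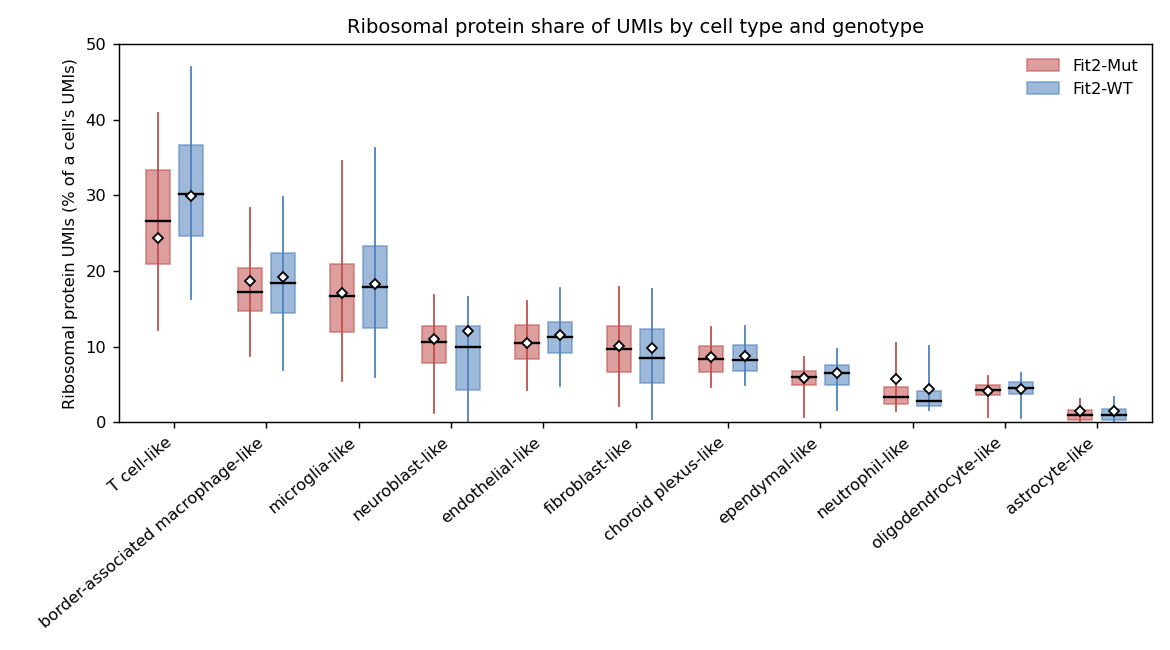
Percent of each cell's UMIs in ribosomal protein genes (y axis) by cell type (x axis), with Fit2-Mut in red to the left of Fit2-WT in blue. Boxes span the quartiles over cells with the median as a black line, thin lines run from the 5th to the 95th percentile, and diamonds give the share of all UMIs pooled (24.4% and 29.9% in T cell-like cells, 1.49% and 1.53% in astrocyte-like cells).

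Astrocyte-like cells were not of one kind. A cluster of 423 Fit2-Mut and 345 Fit2-WT cells had only 0.291% and 0.331% ribosomal protein UMIs, and another astrocyte-like cluster, of 438 and 255 cells, had 1.39% and 1.32%. Malat1, a long noncoding RNA kept in the nucleus, made up 7.78% of UMIs in Fit2-Mut and 8.05% in Fit2-WT in the low cluster, less than the 11.1% in both libraries of the other cluster, and over single astrocyte-like cells it did not run against the ribosomal protein share (Spearman rho 0.08 in Fit2-Mut and 0.0025 in Fit2-WT). Across the 27 clusters the ribosomal protein share and the Malat1 share ran in opposite directions (Spearman rho -0.82 in Fit2-Mut and -0.78 in Fit2-WT). The mitochondrially encoded share ran the same way as Malat1 (rho -0.75 and -0.68 against the ribosomal protein share). Clusters share their libraries and all shares are parts of one total, so these values are a description. Choroid plexus-like cells lay off the trend, with 0.0389% Malat1 in Fit2-Mut, 0.0465% in Fit2-WT and a middling ribosomal protein share.

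**Figure D2:**
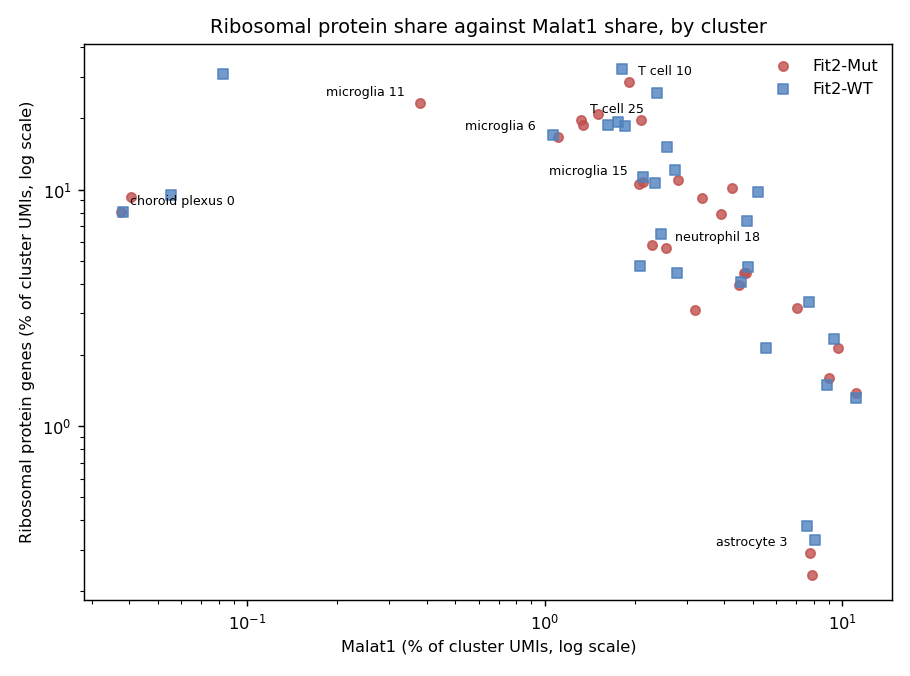
Percent of UMIs in ribosomal protein genes (y axis, log scale) against percent of UMIs in Malat1 (x axis, log scale) for 27 clusters, Fit2-Mut as red circles and Fit2-WT as blue squares; labels name a cluster's type and number beside its Fit2-Mut point. Clusters high in Malat1 sit low (rho -0.82 in Fit2-Mut and -0.78 in Fit2-WT), and the choroid plexus clusters stand apart at the left.

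Of the members, 27 differed over 2-fold between types in their part of the ribosomal protein UMIs, and 16 did with each cell thinned to 1000 UMIs. Rpl41, the smallest protein of the large subunit (chromosome 10, 128548114 to 128549305, minus strand, mm10), had the most UMIs of any member, 2.78% of member UMIs in Fit2-Mut and 3.101% in Fit2-WT. Rplp1, a protein of the ribosomal stalk, followed with 2.47% in Fit2-Mut and 2.39% in Fit2-WT. Also among the 8 members with the most UMIs were Rps24, Rpl13, Rpl23, Rps27a (a fusion of ubiquitin to a ribosomal protein) and Rps29. A level here is a count of captured 3′ ends and not a level per base. Small-subunit genes made up between 39.96% of member UMIs (astrocyte-like) and 46.3% (neutrophil-like) in Fit2-Mut, and between 39.7% and 47.5% in the same types in Fit2-WT.

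A few members stood out in single types. Rps9, a small-subunit protein, took 3.93% of member UMIs in Fit2-Mut and 5.54% in Fit2-WT neutrophil-like cells, against medians over types of 1.59% and 1.54%. Of the members with at least 50 UMIs in every type and library, it had the widest spread over them (SD of log2 percent 0.52), and the spread was 0.21 without neutrophil-like cells. Rpl41 took 4.70% in Fit2-Mut and 5.004% in Fit2-WT choroid plexus-like cells but 1.40% and 1.47% in T cell-like cells. Rpl38, a large-subunit protein known from work on mouse patterning, was highest in endothelial-like cells (2.34% and 2.50%). Rpsa, which also serves as a laminin receptor, was highest in oligodendrocyte-like cells (1.97% and 1.94%) and at 0.71% and 0.67% in choroid plexus-like cells. Rpl7a was highest in astrocyte-like cells (1.02% and 1.03%) and lowest in T cell-like cells (0.46% and 0.41%). Rplp0, the base of the stalk, peaked in neuroblast-like cells (1.64% and 1.66%), and Rpl15 in astrocyte-like cells (1.46% and 1.49%). Rps23, Rpl23, Rps10 and Rplp2 varied least, with SDs of 0.11 to 0.15.

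Paralog pairs showed large contrasts between cell types. Rpl22l1 is the close relative of Rpl22, an RNA-binding large-subunit protein known to repress Rpl22l1 in mouse cells. Of the UMIs of the pair, Rpl22l1 took 47.9% in Fit2-Mut (exact Clopper-Pearson interval 47.2% to 48.6%) and 48.3% in Fit2-WT choroid plexus-like cells (47.5% to 49.0%). In astrocyte-like cells it took 47.7% and 49.0%, in microglia-like cells 20.1% (19.4% to 20.9%) and 19.1% (18.3% to 19.9%), and in endothelial-like cells 18.7% and 19.0%. So the paralog's part of the pair was higher in choroid plexus-like and astrocyte-like cells than in microglia-like and endothelial-like cells, in both libraries. Fibroblast-like cells (47.0% in Fit2-Mut and 48.9% in Fit2-WT) and ependymal-like cells (41.3% and 42.9%) were high as well. A pair's share sets 3′-end counts of different genes side by side and is read only across types and libraries. Free RNA held 35.1% in both.

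Rps27l, a relative of Rps27 known as a p53 target, ranged more widely still. Its share of the pair was 38.3% (37.6% to 38.9%) in Fit2-Mut and 36.9% (36.2% to 37.5%) in Fit2-WT choroid plexus-like cells. In T cell-like cells it was 3.69% (3.21% to 4.23%) and 2.24% (1.83% to 2.70%), and in microglia-like cells 11.7% (11.2% to 12.3%) and 9.68% (9.11% to 10.3%). The share was higher in Fit2-Mut in each of the 11 types, although the intervals overlapped in 8 of them. With each cell thinned to 1000 UMIs it was higher in Fit2-Mut in 4 of the 11, and in microglia-like cells it was then 8.74% in Fit2-Mut and 9.80% in Fit2-WT. Thinning was a random draw that left fewer UMIs and gave each cell the same weight, and the thinned shares carry no interval. In T cell-like cells the gap went with a cluster of 44 Fit2-Mut and 12 Fit2-WT cells that also carried microglial markers: without it the shares were 2.08% and 2.10%.

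Rpl36al took 54.5% in Fit2-Mut and 52.3% in Fit2-WT oligodendrocyte-like cells, against 34.1% and 33.2% in microglia-like cells. Rpl7l1, a relative of Rpl7, took 21.4% (19.3% to 23.7%) in Fit2-Mut and 19.7% (17.3% to 22.4%) in Fit2-WT astrocyte-like cells but 4.33% and 3.56% in microglia-like cells. In astrocyte-like cells this went with a low level of Rpl7 itself, 142 CPM (UMIs scaled to a common total per type and library) in Fit2-Mut and 150 CPM in Fit2-WT, beside 1387 and 1473 CPM in microglia-like cells. Rpl7l1 differed less, at 38.9 and 37.0 CPM in astrocyte-like and 62.8 and 54.4 CPM in microglia-like cells.

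**Figure D3:**
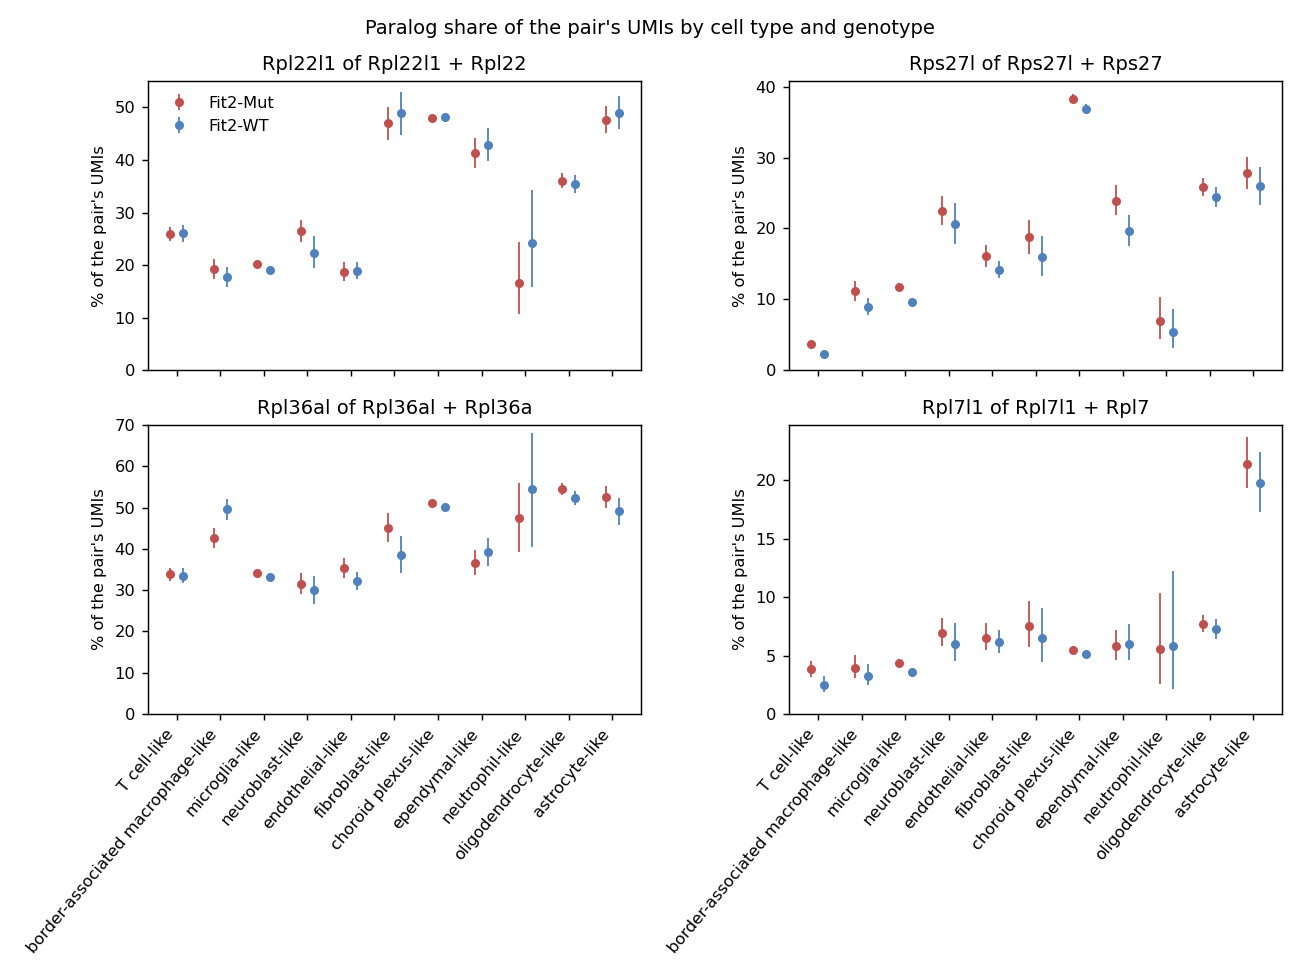
Percent of a pair's UMIs that belong to the paralog (y axis, a panel each for Rpl22l1, Rps27l, Rpl36al and Rpl7l1) in 11 cell types (x axis), with Fit2-Mut in red to the left of Fit2-WT in blue and exact 95% intervals as bars. In Fit2-Mut, Rps27l peaks in choroid plexus-like cells (38.3%), Rpl22l1 is about as high there (47.9%) as in astrocyte-like cells (47.7%), and Rpl7l1 peaks in astrocyte-like cells (21.4%).

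The paralogs best known from testis and muscle were rare. Rpl39l, a germ cell form of Rpl39, had 33 UMIs in 18 of 574 Fit2-Mut and 65 UMIs in 32 of 549 Fit2-WT microglia-like cells, and at most 10 UMIs in each library of the other 10 types. Rpl3l, the striated muscle form of Rpl3, had 11 UMIs in 8 of 61 Fit2-Mut and 7 UMIs in 6 of 70 Fit2-WT neutrophil-like cells. That was 10.5% (5.35% to 17.97%) and 15.9% (6.64% to 30.1%) of the pair, on few UMIs. Border-associated macrophage-like cells, whose cluster also carried monocyte markers, had 5 UMIs in 5 of 89 Fit2-Mut and 17 UMIs in 14 of 116 Fit2-WT cells. These were 0.327% and 1.33% of the pair, and choroid plexus-like cells had 12 and 4 UMIs. Free RNA held 0.341% in Fit2-Mut and 0.317% in Fit2-WT, while microglia-like cells had 0 Rpl3l UMIs beside 11528 and 9345 of Rpl3, which at a limit of 3 UMIs allows Rpl3l up to 0.026% and 0.0321% of the pair. Rpl10l, a testis form of Rpl10, had 0 UMIs in cells of either library.

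Between the genotypes, ribosomal protein shares were lower in Fit2-Mut than in Fit2-WT in each of the 7 types with at least 100 cells in each library. T cell-like cells had the lowest ratio of Fit2-Mut over Fit2-WT, 0.815 with an interval of 0.811 to 0.818. Ependymal-like cells had 0.9005 (0.891 to 0.9096), endothelial-like cells 0.9101 (0.904 to 0.916) and microglia-like cells 0.935 (0.932 to 0.937). The ratio lay closer to 1 for oligodendrocyte-like cells at 0.958 (0.953 to 0.962), for astrocyte-like cells at 0.979 (0.9703 to 0.988) and for choroid plexus-like cells at 0.984 (0.982 to 0.987). The astrocyte-like ratio was 1.02 in cells at or under the median Malat1 share. The per-cell medians did not follow in 2 of these types: they were 0.999% in Fit2-Mut and 0.917% in Fit2-WT astrocyte-like cells, and 8.30% and 8.29% in choroid plexus-like cells. The intervals leave out differences between animals and preparations, whose part in these ratios was not tested.

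Among microglia-like cells, most of the gap lay in 1 of 3 clusters. The cluster led by Spp1, a gene of plaque-associated microglia, had 16.7% in Fit2-Mut and 17.0% in Fit2-WT (338 and 305 cells), and the cluster led by Tmem119, a homeostatic marker, had 10.8% and 10.6% (99 and 101 cells). The remaining cluster, led by cell-cycle genes such as Birc5 and Cdk1 and low in Malat1 (0.380% in Fit2-Mut and 0.0828% in Fit2-WT), had 23.2% and 30.9% (137 and 143 cells). In it, 21 Fit2-Mut and 6 Fit2-WT cells had a UMI of the cell-cycle genes Mki67 or Top2a and held 46.8% and 11.2% of the cluster's UMIs. Most of its cells, 116 in Fit2-Mut and 137 in Fit2-WT, had no UMI of either gene, and these had 31.4% and 32.1%. Median genes per cell were 1206 in Fit2-Mut and 1161 in Fit2-WT in the whole cluster, against 3607.5 and 3424 in the Spp1-led cluster. Without the cluster low in Malat1 the microglia-like ratio was 0.986, and without all Mki67 or Top2a cells it was 0.954.

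In T cell-like cells the gap was smaller without the cluster that also carried microglial markers, whose cells had a median of 15538 UMIs in Fit2-Mut and 15534.5 UMIs in Fit2-WT, against 4153.5 and 4161 in the main cluster. All 9 microglial markers were detected in T cell-like cells of both libraries, and their summed level was 1.11% of UMIs in Fit2-Mut and 0.473% in Fit2-WT; none was at 0. That cluster had 19.6% ribosomal protein UMIs in Fit2-Mut (44 cells) and 18.8% in Fit2-WT (12 cells). The main T cell-like cluster had 28.5% in Fit2-Mut (186 cells) and 32.3% in Fit2-WT (185 cells), a ratio of 0.884, with microglial markers at 0.0576% and 0.0367% of UMIs.

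Gene by gene, the shift was small and broad. Of members with at least 20 UMIs, 78 of 81 had a ratio under 1 in T cell-like cells (45.9% of all 9139 genes tested there did), 76 of 82 in microglia-like (37% of all), 76 of 81 in endothelial-like (52.9%) and 75 of 81 in ependymal-like cells (48.8%). The counts were 65 of 81 in oligodendrocyte-like (47.8% of all genes), 52 of 81 in choroid plexus-like (52%) and 49 of 81 in astrocyte-like cells (50.2%), the last 2 near the share of all genes. Median log2 ratios of the members were -0.28 in T cell-like, -0.14 in ependymal-like, -0.12 in endothelial-like, -0.08 in microglia-like, -0.06 in oligodendrocyte-like, -0.03 in astrocyte-like and -0.01 in choroid plexus-like cells. Over all genes the medians lay between -0.02 and 0.07. Other genes with at least as many UMIs as the lower quartile of the members were also set beside them. Their medians were -0.06 in T cell-like (15 of 24 genes under 1) and -0.04 in microglia-like cells (31 of 54). They were -0.05 in endothelial-like (63 of 97) and -0.04 in choroid plexus-like cells (111 of 158), the latter below the members' median. In ependymal-like cells the median was 0.03 (76 of 185), and it was -0.01 in oligodendrocyte-like (196 of 361) and astrocyte-like cells (603 of 1078). Only in ependymal-like cells was the median of these genes above that over all genes. The choroid plexus-like median of the members turned to 0.0028 with at most 5% mitochondrial UMIs. Without the cluster low in Malat1 the microglia-like median was -0.0048 and 43 of 82 members were under 1; without the cluster with microglial markers the T cell-like median was -0.17 and 78 of 81 members were under 1.

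No member was at least 1.5-fold higher in Fit2-Mut in any of the 7 types, and 1 was at least 1.5-fold lower, Rpl39l in microglia-like cells (4.57 CPM in Fit2-Mut and 11.4 CPM in Fit2-WT, ratio 0.401, interval 0.256 to 0.619). Among all genes tested in microglia-like cells, 8.1% were at least 1.5-fold higher and 3.11% at least 1.5-fold lower. Among all genes, 17.4% were past that fold higher and 7.3% lower in T cell-like cells, 7.97% and 6.83% in ependymal-like, 5.58% and 5.36% in endothelial-like and 5.41% and 2.93% in oligodendrocyte-like cells. In astrocyte-like cells 5.01% were higher and 3.49% lower, and in choroid plexus-like cells 3.18% and 2.88%. Of the Rpl39l UMIs, 26 in Fit2-Mut and 45 in Fit2-WT came from the Spp1-led cluster and 4 and 18 from the cluster low in Malat1.

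Of 81 members tested in all 7 types, 29 were lower in Fit2-Mut in every one, compared with 2.57% of the 6892 genes tested in all. None was higher in every one (2.21% of those genes were lower in none), and 70 were lower in at least 5 (23.7% of those genes). The members with the lowest mean log2 ratio were Rps28 (-0.28), Rps29 (-0.25), Rps21 (-0.25), Rpl35 (-0.24), Rpl36 (-0.23), Rpl37a (-0.21) and Rpl38 (-0.20), each lower in all 7 types. Rps28, a small-subunit protein near the mRNA exit, had 1785 CPM in Fit2-Mut and 2131 CPM in Fit2-WT microglia-like cells (ratio 0.838, 0.817 to 0.859). In choroid plexus-like cells it had 631 and 712 CPM (0.886, 0.863 to 0.9101), and in ependymal-like cells 321 and 450 CPM (0.714, 0.627 to 0.813). Rps29, a small zinc-binding protein of the small subunit, had 3842 CPM in Fit2-Mut and 4568 CPM in Fit2-WT microglia-like cells and 2001 and 2505 CPM in endothelial-like cells. Rps21, also of the small subunit, had 2904 and 3443 CPM in microglia-like and 826 and 966 CPM in oligodendrocyte-like cells. Rps28, Rps29, Rps21, Rpl38 and Rpl35 stayed lower in microglia-like cells without the cluster low in Malat1, with log2 ratios of -0.16, -0.18, -0.16, -0.17 and -0.15.

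**Figure D4:**
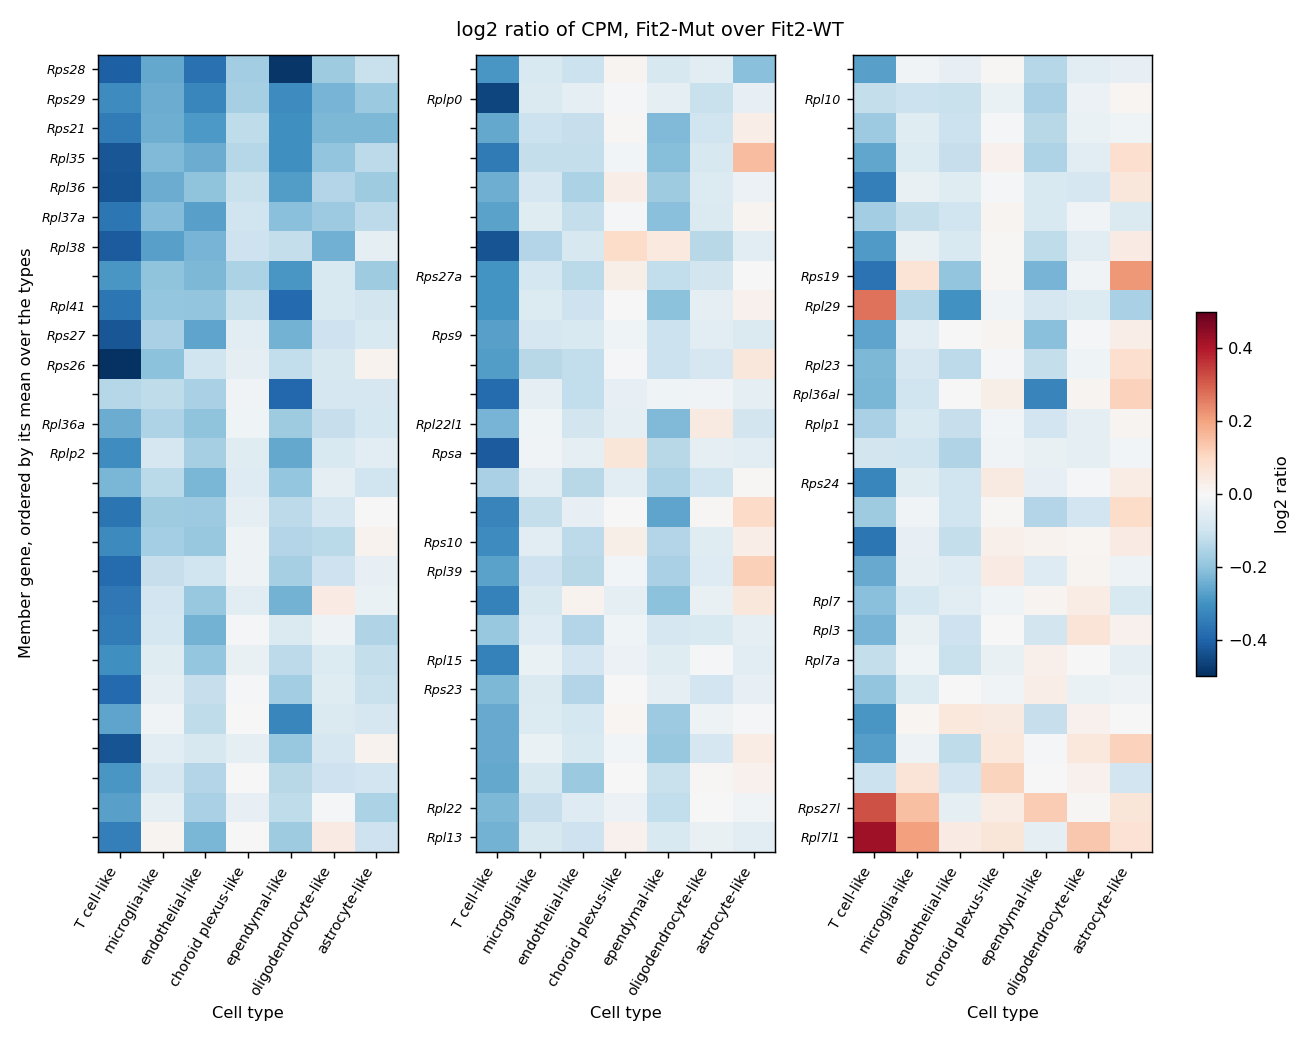
log2 ratio of CPM, Fit2-Mut over Fit2-WT (colour, blue for lower and red for higher in Fit2-Mut, colours capped at 0.5), for 81 members (down the page in 3 panels, by mean over types, with names for members given in the text) in 7 cell types (across). The top of the first panel, from Rps28 (mean -0.28) on, is blue in all 7 types, and Rps27l and Rpl7l1 close the last panel.

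At the other end, Rpl7l1 and Rps27l had the highest mean log2 ratios, 0.13 and 0.09. Rpl7l1 had 62.8 CPM in Fit2-Mut and 54.4 CPM in Fit2-WT microglia-like cells (ratio 1.15, 0.997 to 1.34) and 73.2 and 54.5 CPM in T cell-like cells (1.34, 0.971 to 1.88), intervals that include 1. Rps27l had 191 and 172 CPM in microglia-like cells (1.11, 1.02 to 1.21), and 1.05-fold without Mki67 or Top2a cells. The direction turned, to 0.761, with each cell thinned to 1000 UMIs. Thinning was a random draw from cells with medians of 11295.5 UMIs in Fit2-Mut and 9553 UMIs in Fit2-WT. It also gave each cell the same weight, where the main ratio weights cells by their UMIs. Thinned ratios carry no interval, so their counting error is not shown. In T cell-like cells the Rps27l ratio was 1.247 (0.979 to 1.60), and 0.866 without the cluster with microglial markers. Rpl29, a large-subunit protein, was higher in Fit2-Mut T cell-like cells, at 565 and 468 CPM (1.21, 1.08 to 1.35), and Rps26 (1885 and 2652 CPM, 0.711) and Rplp0 (3302 and 4538 CPM, 0.728) were lower there. Ratios without the cluster with microglial markers are not given for these genes. Rpl29 took 0.157% of member UMIs in Fit2-WT T cell-like and 0.293% in Fit2-WT microglia-like cells, and the part of that cluster in its ratio was not tested. Rps19, a small-subunit protein mutated in Diamond-Blackfan anaemia, had 146 CPM in Fit2-Mut and 126 CPM in Fit2-WT astrocyte-like cells (1.16, 1.05 to 1.28), and the direction turned, to 0.948, with each cell thinned to 1000 UMIs.

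The members with the lowest ratios were short ones. Across 81 members the mean log2 ratio was larger for longer annotated coding sequences (Spearman rho 0.45), and rho was 0.55 in microglia-like cells (0.61 without the cluster low in Malat1) but 0.11 in T cell-like and 0.12 in astrocyte-like cells. The 27 members under 400 bases had a median of -0.14, and 15 of them were lower in all 7 types. The 30 members of 400 to under 600 bases had a median of -0.09 with 9 lower in all, and the 24 longer ones -0.08 with 5. In free RNA, where the members as a group were higher in Fit2-Mut, rho was also 0.45, and for 6712 other genes it was 0.19. Members share libraries and scaling, so these are descriptions; the part of capture or of fragment length in them was not tested. Members whose start stretch held CTTTC had a median of -0.10 (15 members) and the others -0.09 (46 members).

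**Figure D5:**
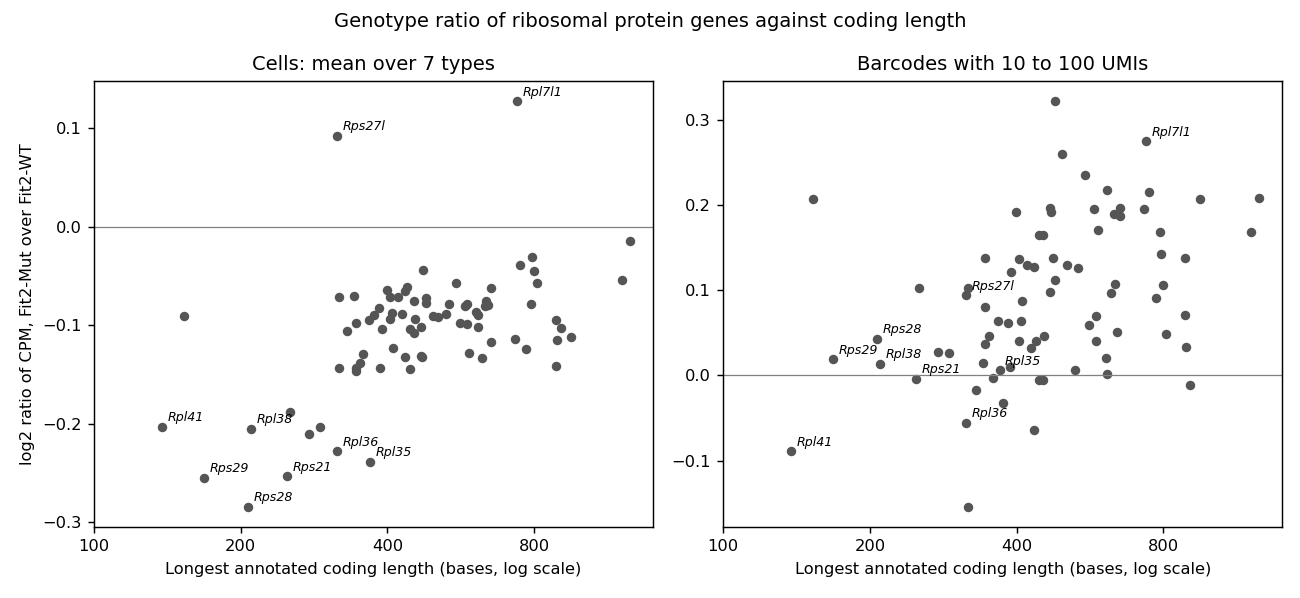
log2 ratio of CPM, Fit2-Mut over Fit2-WT (y axis), against the longest annotated coding length in bases (x axis, log scale) for 81 members, as the mean over 7 types (left) and in barcodes with 10 to 100 UMIs (right). Ratios tend to be lower for shorter members in both panels (rho 0.45 in each), and in the right panel most members lie above 0.

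The genes that work beside the ribosomal proteins did not all share their direction. Fau, which encodes a further small-subunit protein fused to a ubiquitin-like protein, had 6074 CPM in Fit2-Mut and 6737 CPM in Fit2-WT microglia-like cells (ratio 0.902, 0.889 to 0.914). Of 12 other mRNAs with a terminal oligopyrimidine tract, 11 were under 1 in T cell-like (45.9% of all genes) and 8 in microglia-like cells (37%). The count was 7 in endothelial-like (52.9%), choroid plexus-like (52%) and ependymal-like cells (48.8%), 4 in oligodendrocyte-like (47.8%) and 3 in astrocyte-like cells (50.2%). Tpt1, one of these, was level in microglia-like cells at 4101 and 4103 CPM (0.999, 0.982 to 1.02).

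Elongation factors, which move the ribosome along the mRNA, had medians of -0.19 in ependymal-like, -0.14 in T cell-like, -0.06 in endothelial-like and -0.02 in microglia-like cells. Their medians were 0.02 in astrocyte-like, 0.04 in choroid plexus-like and 0.06 in oligodendrocyte-like cells. Eef1a1 had 5369 CPM in Fit2-Mut and 5432 CPM in Fit2-WT microglia-like cells. In microglia-like cells 10 of 26 initiation factors were under 1 (median 0.04), as were 19 of 35 ribosome assembly genes (-0.07) and 6 of 18 genes of mTORC1 and its route to these mRNAs (0.15), beside 37% of all genes. Mitochondrial ribosomal proteins, which serve the other ribosome of the cell, were under 1 in 32 of 78 cases there (0.03), while 53 of 78 were under 1 in endothelial-like (52.9% of all genes) and 54 of 77 in T cell-like cells (45.9%), where their median turned from -0.12 to 0.032 under thinning. Mitochondrially encoded genes were above 1 in 12 of 13 cases in microglia-like (63% of all genes) and 13 of 13 in choroid plexus-like cells (48%). They were under 1 in 8 of 13 cases in T cell-like (45.9% of all genes) and 7 of 13 in ependymal-like cells (48.8%). The count under 1 was 4 in endothelial-like (52.9%) and oligodendrocyte-like (47.8%) and 3 in astrocyte-like cells (50.2%). Among nuclear retained RNAs, Malat1 made up 1.11% of UMIs in Fit2-Mut and 1.08% in Fit2-WT microglia-like cells and 1.64% and 1.79% in T cell-like cells.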

How the data were processed

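Whole brain cells of 6-month-old APP-KI Fit2-Mut and Fit2-WT mice were sequenced in 1 library each. The deposited matrices hold raw UMI counts for all barcodes, without normalization by the authors; the submitters' processing notes name mm10 and Cell Ranger 7.0.0, and per the file headers the version was 7.1.0. Which annotation release was used, and whether intronic reads were counted, is not given in the sources used here.

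Cells were barcodes with at least 1000 UMIs, 500 genes and at most 10% mitochondrial UMIs. Scrublet in Scanpy 1.11.5 (expected rate 0.8% per 1000 barcodes) removed 158 Fit2-Mut and 136 Fit2-WT doublets, leaving 5821 and 5197 cells. Clustering used 2000 variable genes without the members, 30 components, 15 neighbours and Leiden resolution 1. Types were named from 19 marker lists, with at least 3 markers and a share of at least 0.5 of a list. Of the clusters, 2 stayed unnamed, and B, NK, neuron and smooth muscle types had under 50 cells in a library.

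Counts were summed per type and library and divided by the total (CPM). A ratio sets Fit2-Mut over Fit2-WT and has an exact conditional interval, and shares have Clopper-Pearson intervals. Both take UMIs as independent and cover counting error only. No test was made. Ratios were checked on simulated counts, with the limit for agreement widened after 1 setting missed the first one. Named members were those with the most UMIs, the most and least varying, the highest and lowest ratios per type, and the paralogs; Rpl35 and Rpl37a were named after their values were seen. Coding lengths came from GENCODE M21 and start stretches from RefSeq, which matched 64 of the 84 members; of 8 paralog pairs listed, 7 were measured. Reads of near-identical copies may be split: Rpl10-ps3 had 1769 UMIs in Fit2-Mut and 1373 UMIs in Fit2-WT and Rps27rt had 1502 and 1136, outside the member list. Some genes and 1 gene list are not reported here. The members and gene lists were chosen with earlier results of these data known.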

Additional observations from a re-analysis of the deposited data

Results flagged for a closer look

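Fibroblast-like cells (81 in Fit2-Mut, 59 in Fit2-WT) had a ribosomal protein share ratio of 1.04 (1.02 to 1.05), above 1 where the larger types were below it; the difference between types was not tested.

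Neutrophil-like cells (61 in Fit2-Mut, 70 in Fit2-WT) had a ratio of 1.28 (1.247 to 1.31), with per-cell medians of 3.32% in Fit2-Mut and 2.88% in Fit2-WT. All 9 microglial markers were detected in them in both libraries, at a summed 0.435% of UMIs in Fit2-Mut and 0.037% in Fit2-WT. Choroid plexus markers stood at 1.83% in Fit2-Mut (6 of 7 detected, Otx2 at 0) and 0.0899% in Fit2-WT (2 of 7 detected), the cells' own neutrophil markers at 12.7% and 17.2%, and mitochondrial UMIs at 1.16% and 0.461%. The part of these in the ratio was not tested.

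Barcodes with 10 to 100 UMIs, used in no comparison of cells, had a share ratio of 1.06, from 76390 barcodes in Fit2-Mut and 75833 in Fit2-WT.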

How the results depend on the processing

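No paired analysis was possible because each genotype has 1 library. Leaving out a replicate was not possible for the same reason.

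In microglia-like cells the ribosomal protein share ratio was 0.935. It was 0.969 with barcodes of at least 500 UMIs and 250 genes, 0.950 with at most 5% mitochondrial UMIs and 0.940 with doublets kept. With members allowed in clustering, where 0 of them were picked, it was 0.949. It was 0.944 with types set by marker share per cell, 0.924 with cells thinned to 1000 UMIs and 0.932 with cells weighted equally. The ratio was 0.911 in cells of 3000 to 15000 UMIs, 0.932 in cells at or under the median Malat1 share and 0.864 with clusters weighted equally. With the looser barcodes, a shallow cluster with microglial markers, low in Malat1, stayed unnamed (196 Fit2-Mut and 213 Fit2-WT cells, 31.1% ribosomal protein UMIs). The looser values therefore leave that cluster out of the microglia-like cells. Chosen after seeing the data were the ratios without the cluster low in Malat1 (0.986) and without cells with an Mki67 or Top2a UMI (0.954). The median log2 ratio of the members was -0.033, -0.052, -0.055 and -0.11 with the looser barcodes, the mitochondrial limit, members allowed in clustering and thinning. It was -0.15 with TMM and with median-of-ratios scaling, -0.10 with totals without the members, -0.12 at 3000 to 15000 UMIs, -0.19 with clusters weighted equally, -0.0048 without the cluster low in Malat1 and -0.051 without Mki67 or Top2a cells.

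Member and type pairs at least 1.5-fold higher numbered 1 under thinning, with members of at least 1 UMI per library, and at 3000 to 15000 UMIs. Lower pairs numbered 4 under thinning, 2 with totals without the members, 3 with at least 1 UMI per library, 0 with at least 100 UMIs and 6 with clusters weighted equally. Neither the number of pairs compared nor the share of all genes past that fold is given for these settings. Thinning and the limit of 1 UMI also let in pairs with few UMIs, so these counts are not read as a result about the members. The T cell-like share over the astrocyte-like share was 16.3 in Fit2-Mut and 19.6 in Fit2-WT. It was 17.6 and 20.6 with the looser barcodes, 15.6 and 18.5 at 5% mitochondrial UMIs, 16.1 and 18.4 with doublets, 19.8 and 23.9 by marker share, 22.2 and 24.5 thinned and 22.4 and 24.3 with cells weighted equally. It was 19.1 and 21.2 without the cluster with microglial markers and 13.5 and 15.8 without the astrocyte-like cluster under 1%. In Fit2-WT it was 19.8 with members allowed in clustering. Members at least 2-fold apart in make-up between types numbered 27, and 16 under thinning, where the limit of 20 UMIs applied to fewer UMIs.

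Paralog percents in microglia-like cells were, for Rpl22l1, 21.1 in Fit2-Mut and 20.3 in Fit2-WT with the looser barcodes and 19.0 and 17.8 thinned. The looser values again leave out the unnamed cluster low in Malat1. Rps27l in Fit2-Mut was 10.6 at 5% mitochondrial UMIs, 10.7 with members allowed in clustering and 8.74 thinned. Rpl36al was 32.2 in Fit2-Mut and 34.6 in Fit2-WT thinned, and Rpl7l1 in Fit2-WT was 4.11 with the looser barcodes and 2.55 thinned.

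The direction turned in the astrocyte-like share (1.02 at or under the median Malat1 share) and in the choroid plexus-like median (0.0028 at 5% mitochondrial UMIs, 0.0062 at 3000 to 15000 UMIs). Thinning turned Rps3a1 (0.799), Rps19 (0.948) and Rpl35a (0.992) in astrocyte-like, Rps27l (0.761) and Rps19 (0.9702) in microglia-like and Rps3a1 (0.963) in oligodendrocyte-like cells. It also turned the T cell-like median of mitochondrial ribosomal proteins (0.032) and the oligodendrocyte-like median of nuclear retained RNAs (0.0061). Rps19 in microglia-like cells was also 0.997 under TMM, 0.998 under median of ratios, 0.986 at 3000 to 15000 UMIs and 0.949 with clusters weighted equally. Thinned values come from a random draw of fewer UMIs that weights cells equally, and they carry no interval. The cause was not tested for these turns. Totals without the members shift T cell-like log2 ratios by -0.11. Depth limits the rare paralogs, and no setting addresses differences between animals.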

Other observations

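Barcodes that passed the UMI and gene limits but had over 10% mitochondrial UMIs held few ribosomal protein UMIs, 2.06% in Fit2-Mut (657 barcodes) and 1.87% in Fit2-WT (487 barcodes). B cell-like cells had 20.9% in Fit2-Mut (61 cells) and 25.7% in Fit2-WT (38 cells), and NK cell-like cells 19.6% (36 cells) and 18.5% (45 cells). Neuron-like cells had 4.44% (37 cells) and 2.14% (23 cells). Within endothelial-like cells, a small cluster of 16 Fit2-Mut and 22 Fit2-WT cells had 9.22% and 15.1%, while the main cluster had 10.6% and 11.3%.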
